A study of Mus musculus with 8 samples.

Results

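The RNA of 10 genes of glucose uptake and glycolysis was followed: the glucose transporter gene Slc2a1, the hexokinase genes Hk1, Hk2 and Hk3, the phosphofructokinase genes Pfkl, Pfkm and Pfkp, and Gapdh, Pkm and Ldha. They were taken by name, through their Ensembl identifiers, from a table of 26930 mouse genes, and all 10 were among the 12852 genes tested. The cells were myeloid-derived suppressor cells (MDSCs), which are immature, of myeloid origin and able to restrain T cells. They were grown from the bone marrow of C57BL/6 mice with the cytokines GM-CSF and IL-6, each at 40 ng/ml. On day 4 both groups were moved to medium conditioned by TRAMP-C1 cells, a mouse prostate tumour line, and the cells are labelled senescent-like. Poly(A) RNA from 4 untreated libraries was compared with that from 4 libraries of cells given Romidepsin, an inhibitor of histone deacetylases, at 0.5 µM for 6 h. No label says that the libraries of a group came from different cultures or mice. The p-values therefore reflect the spread between libraries, which may be technical.

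Glycolysis turns glucose into pyruvate in the cytosol. Glucose enters through transporters such as GLUT1, the product of Slc2a1, and hexokinase traps it in the cell as glucose 6-phosphate. Phosphofructokinase then makes the committed step, and in activated myeloid cells much of the pyruvate is reduced to lactate. Hexokinase and phosphofructokinase are each encoded by several genes whose products differ in tissue distribution and in regulation, so the make-up of the pool can change while its total does not.

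Among the 3 phosphofructokinase genes, Pfkl moved in the direction opposite to Pfkm and Pfkp. Pfkl, encoding the liver-type subunit, fell to 0.521 times its untreated level, while Pfkm, encoding the muscle-type subunit, rose 2.05-fold and Pfkp, encoding the platelet-type subunit, rose 1.56-fold. Hk3, a hexokinase gene known for its expression in myeloid cells, was lower in every treated library, most of all in treated replicates 1 and 2, but did not pass the reported test. It passed with the libraries paired by replicate number. It also passed with limma-voom and the DESeq2 Wald test, which leave the pairing out as the reported test does. The other 6 genes did not pass the test in either direction. Of the 10 genes, 2 were therefore higher and 1 was lower at an adjusted p under 0.05 (edgeR quasi-likelihood test, Benjamini-Hochberg over all genes tested). Over all tested genes 20.3% were higher and 16.2% lower by the same rule, so that the share of the 10 genes called lies close to that of the table as a whole. Background shares were 21.2% and 20.8% with the replicate block, 20.1% and 18.9% without both libraries of number 3, and 9.4% and 6.27% with no count filter. They were 22.0% and 21.8% with the DESeq2 Wald test. The median log2 fold change of the 10 genes was −0.38, against 0.01 for all tested genes.

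Total counts per library ran from 12996892 to 23176949, and levels are given as CPM, the count of a gene relative to the total of its library, after scaling by the TMM method (trimmed mean of M-values). Treated replicate 3 stood apart: without it 24.5% of genes were higher and 23.4% lower, and results that rest on it are given with and without it. All 14 markers of myeloid suppressor cells were detected, with Ly6g at 4.68 to 19.6 CPM and Ly6c1 at 0.0799 to 7.23 CPM in untreated cells as the weakest. Their summed level was 8106 to 12813.5 CPM in untreated and 1399.8 to 6945 CPM in treated libraries and 2 of the 14 fell. The 6 B lymphoid markers summed to 264 to 921 and 27.1 to 435 CPM, and 4 of them fell. Macrophage markers summed to 2234 to 5609 and 1110.0 to 4045 CPM. Dendritic, T and NK, mast, stromal and prostate epithelial markers summed to at most 177 CPM in any library, erythroid and platelet markers to at most 699 CPM. In bulk RNA, fewer cells of a type and less RNA per cell cannot be told apart.

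**Figure D1:**
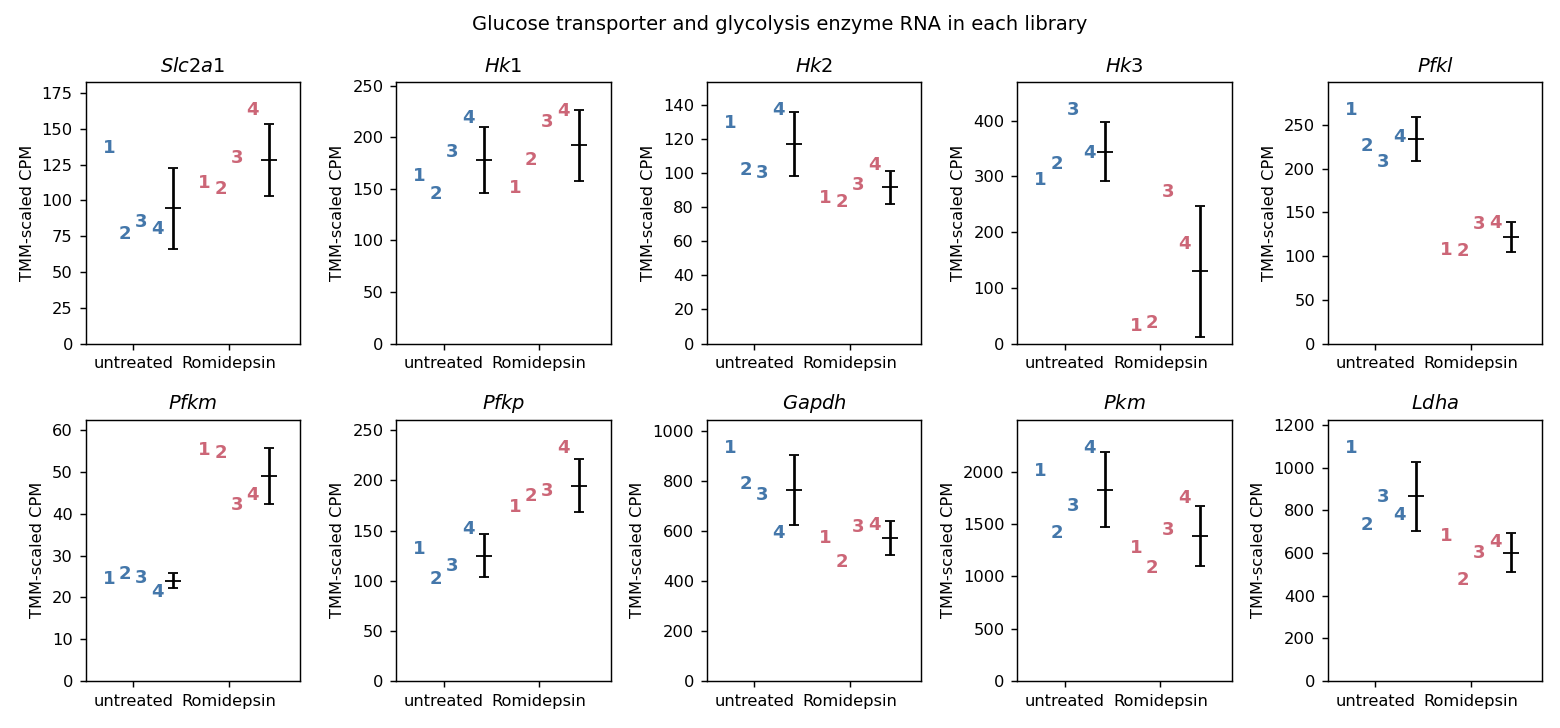
Level of each of the 10 genes in each library, in TMM-scaled CPM on linear axes that start at 0. Digits are replicate numbers of untreated (blue) and Romidepsin-treated (red) libraries, and the black marks give the group mean and SD (n = 4). The digits of the 2 groups do not overlap for Pfkl, Pfkm, Pfkp, Hk3 and Ldha, and for Hk3 treated replicates 1 and 2 sit far under replicates 3 and 4.

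Per kilobase of merged exons, the 10 genes spanned a wide range of levels in untreated cells. Pkm was highest at 365 ± 72.0 CPM per kb (SD, n = 4), followed by Ldha at 262 ± 48.7 and Gapdh at 185 ± 34.1. Hk3 came next at 93.5 ± 14.5 CPM per kb, above all other hexokinase and phosphofructokinase genes. Pfkl stood at 35.0 ± 3.74, Slc2a1 at 27.0 ± 8.05, Hk1 at 20.9 ± 3.74 and Hk2 at 19.6 ± 3.15 CPM per kb, and Pfkp and Pfkm were lowest at 9.33 ± 1.62 and 7.17 ± 0.555. Steps in this order larger than the SDs of both neighbours added together were those from Gapdh to Hk3, from Hk3 to Pfkl and from Hk2 to Pfkp, and other neighbours were not separated. Per kilobase of the principal transcript instead, a length chosen after seeing the data, the order was Pkm, Gapdh (538 ± 99.3 CPM per kb), Ldha (490.4 ± 91.2), Hk3, Pfkl, Hk1 (46.3 ± 8.29), Pfkp (30.2 ± 5.23), Slc2a1 (29.0 ± 8.66), Hk2 (21.2 ± 3.41) and Pfkm. Gapdh thus moved above Ldha, Hk1 above Slc2a1, and Pfkp above Slc2a1 and Hk2.

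Phosphofructokinase was the step with the clearest difference between the groups. Pfkl (chr10:77986947-78010083, minus strand, GRCm38) was at 266.5, 225, 207 and 236 CPM in untreated replicates 1 to 4 and at 107, 106, 137 and 137 CPM in treated ones. All 4 treated libraries lay under all untreated ones. The log2 fold change was −0.94 ± 0.17 (SE; edgeR quasi-likelihood adjusted p = 0.00447), but −0.20 (adjusted p = 0.406) when libraries were scaled to 20 housekeeping genes. Pfkm (chr15:98092589-98132451, plus strand) was at 24.5, 25.5, 24.6 and 21.3 CPM untreated and 55.3, 54.5, 42.2 and 44.5 CPM treated. The groups were far apart beside a spread of 1.85 CPM (SD, n = 4) among untreated libraries, and the log2 fold change was 1.04 ± 0.15 (edgeR adjusted p = 0.00232). The call for Pfkm held in each of the 17 other settings tried. Pfkp (chr13:6579768-6648777, minus strand) was at 131, 102, 115 and 152 CPM untreated and 173.5, 184, 189 and 233 CPM treated. The lowest treated library was above the highest untreated one, and the log2 fold change was 0.64 ± 0.18 (edgeR adjusted p = 0.0231). This call was lost with no count filter (adjusted p = 0.0612), without untreated replicate 2 (0.0643) or 3 (0.0696), without treated replicate 4 (0.0711) and on leaving out the pair of number 3 (0.0657).

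All treated libraries were above all untreated ones for 2 of the 10 genes, Pfkm and Pfkp, against 18.7% of tested genes. All were below for 3, Pfkl, Hk3 and Ldha, against 16.5% of tested genes. Within pairs of the same replicate number, Pfkm and Pfkp were higher in the treated library of all 4, a pattern held by 30.1% of tested genes. Hk2, Hk3, Pfkl, Pkm and Ldha were lower in all 4, a pattern held by 29.5%.

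A ratio of 2 genes within a library does not depend on how libraries are scaled. The log2 ratio of Pfkl to Pfkm counts was 3.44, 3.14, 3.07 and 3.47 in untreated replicates 1 to 4 and 0.95, 0.96, 1.70 and 1.62 in treated ones, a difference of −1.97. In linear terms the ratio fell to 0.255 of its untreated value. The log2 ratio of Pfkl to Pfkp was 1.02, 1.14, 0.85 and 0.64 untreated and −0.69, −0.80, −0.47 and −0.76 treated, a difference of −1.59. Pfkl thus had more counts than Pfkp in each untreated library and fewer in each treated library. Both ratios reached the smallest p that 4 against 4 libraries allow (exact two-sided permutation test, p = 0.0286), which became 0.0571 when adjusted over the 6 pairs compared and so missed the threshold. Pfkm against Pfkp differed by 0.38 on the log2 scale, with overlapping groups (exact permutation p = 0.171, adjusted p = 0.171). Taken as pairs by replicate number, all 4 pairs agreed in direction for each ratio, and an exact sign-flip test over 4 pairs cannot go below p = 0.125.

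Per kilobase of merged exons, Pfkl made up 70, 68.9, 66.1 and 66.6% of phosphofructokinase RNA in untreated libraries and 35.3, 34.6, 43.4 and 40.1% in treated ones. Its mean share went from 67.9 ± 1.86% to 38.3 ± 4.18% (SD, n = 4). Pfkm went from 14.0 ± 1.89% to 31.1 ± 5.54% and Pfkp from 18.1 ± 2.47% to 30.5 ± 2.35%. The summed level of the 3 genes was 46.9 to 57.0 CPM per kb in untreated and 45.6 to 51.3 in treated libraries, so the totals overlapped while the shares did not. Per principal transcript the Pfkl share went from 62.0 ± 2.66% to 33.7 ± 3.02% and the largest share in treated cells was that of Pfkp, at 48.5 ± 2.35%. Which of Pfkl, Pfkm and Pfkp led the pool in treated cells therefore depended on the length used.

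**Figure D2:**
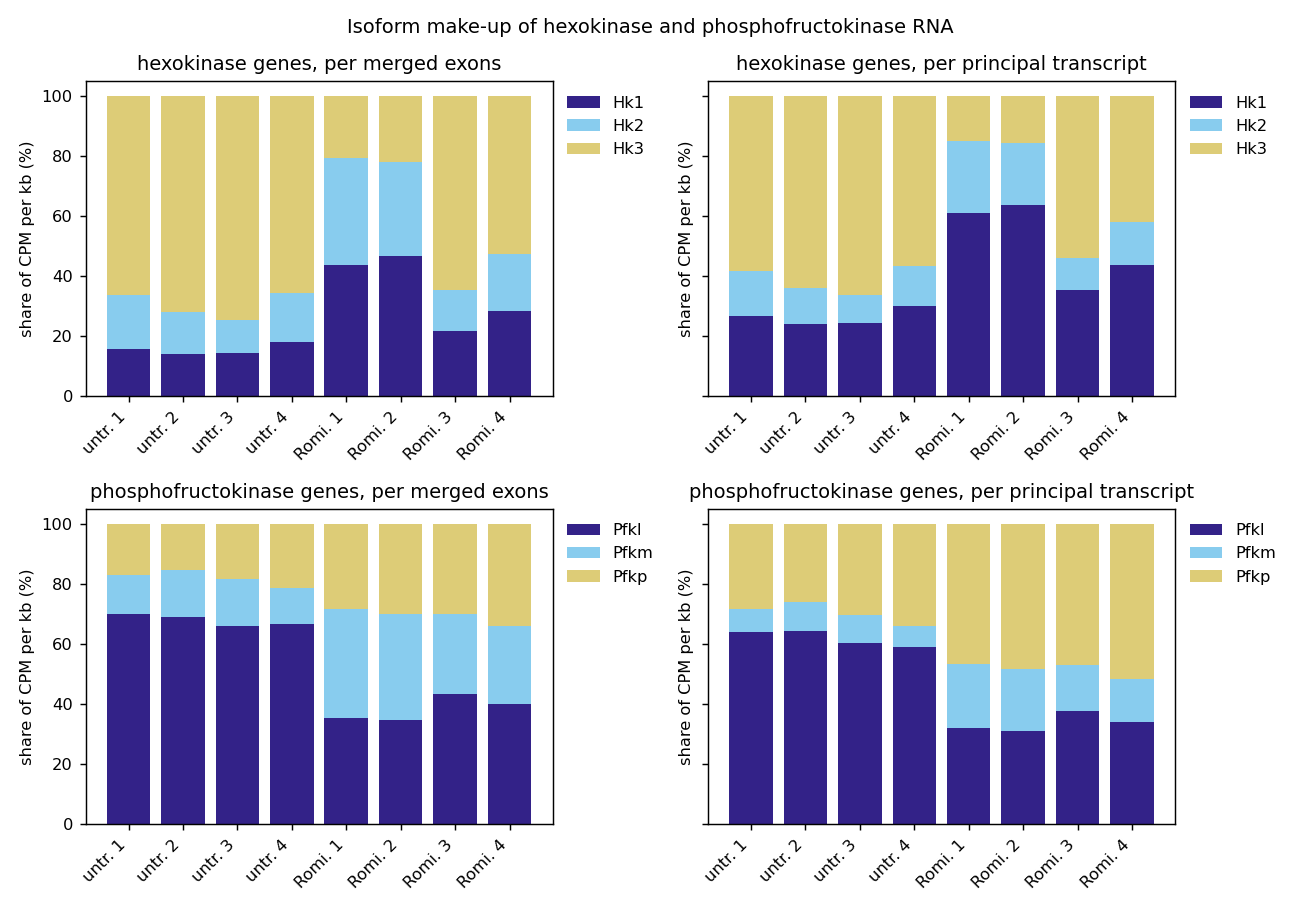
Share of each gene in hexokinase RNA (top) and phosphofructokinase RNA (bottom) in each library, in percent of the summed CPM per kb, with length taken as merged exons (left) or the principal transcript (right). Pfkl holds 66.1 to 70% per merged exons in untreated and 34.6 to 43.4% in treated libraries, and Hk3 holds 65.7 to 74.7% in untreated libraries but 20.7 to 64.4% in treated ones.

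The promoters of the 3 phosphofructokinase genes are shown because the genes share a reaction and differed in direction. The sequences are the bases before RefSeq transcript starts on GRCm38.p6, written 5′ to 3′ on the strand of the gene. Those of Pfkl leave out 53 bases annotated as untranslated exon. The Pfkl bases lie inside the annotated span of the gene, so they may not be the promoter in use. Pfkm has 4 RefSeq start windows, and the one printed, with the most annotated coding starts, may not be the start in use. Capitals mark ACGTG (a form of the core that hypoxia-inducible factors bind) and CACGTG (the E-box of Myc and of the carbohydrate response factors). They also mark GGGCGG (the GC box of Sp1) and AGGAAG (a core of the ETS family, which includes the myeloid factor PU.1). Each was searched on both strands, and other forms of these cores, such as GCGTG, were not searched.
Pfkl promoter, chr10:78009808-78010004, minus strand: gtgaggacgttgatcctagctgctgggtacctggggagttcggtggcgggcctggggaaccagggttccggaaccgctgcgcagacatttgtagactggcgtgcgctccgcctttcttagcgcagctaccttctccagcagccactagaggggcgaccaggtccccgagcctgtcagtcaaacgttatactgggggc
Pfkm promoter, chr15:98092339-98092588, plus strand: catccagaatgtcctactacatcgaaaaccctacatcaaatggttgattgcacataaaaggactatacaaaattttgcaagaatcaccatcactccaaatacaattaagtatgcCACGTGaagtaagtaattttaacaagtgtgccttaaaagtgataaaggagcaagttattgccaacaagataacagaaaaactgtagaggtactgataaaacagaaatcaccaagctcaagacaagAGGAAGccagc
Pfkp promoter, chr13:6648772-6649021, minus strand: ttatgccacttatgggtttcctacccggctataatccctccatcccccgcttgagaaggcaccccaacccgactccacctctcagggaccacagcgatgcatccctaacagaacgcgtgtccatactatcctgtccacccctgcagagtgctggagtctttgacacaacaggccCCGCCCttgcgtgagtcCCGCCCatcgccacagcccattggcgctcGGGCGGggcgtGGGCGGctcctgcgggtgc
The Pfkl stretch held none of the 4 motifs. The Pfkm window held 1 CACGTG, which reads as ACGTG on each strand, and 1 AGGAAG, in a sequence of 36.4% GC. The Pfkp window held 4 GC boxes, all in its last part next to the start, and no other motif. Over 32851 windows of 250 bases, ACGTG was found in 16.6%, CACGTG in 6.02%, GGGCGG in 32.7% and AGGAAG in 29.5%, and the median GC content was 52.4%. A match describes the letters only and does not show that a factor binds.

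Pfkm and Pfkp share exon bases with other annotated genes, and whether the counting used strand is not given in the sources used here. Pfkp shares 748 of 13401 exon bases with Pitrm1 on the opposite strand, which was at 26.0 to 42.3 CPM in untreated and 33.2 to 96.2 CPM in treated libraries. Pfkm shares 341 of 3340 bases with Gm26513 on the same strand, a gene at 0.53 CPM or less in every library. It shares 18 bases with Senp1 on the opposite strand, which was at 35.0 to 52.8 CPM untreated and 17.7 to 24.1 CPM treated. The part of these overlaps in the values of Pfkp and Pfkm was not tested.

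**Figure D3:**
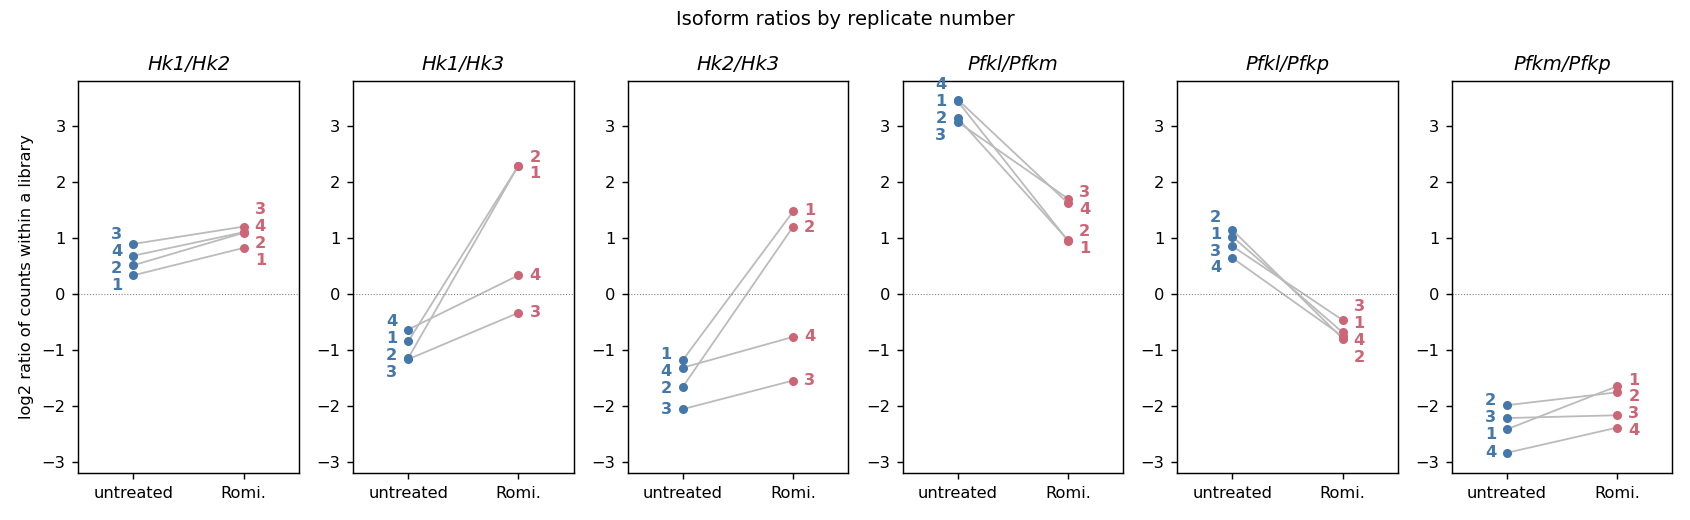
Log2 ratio of counts within each library for the 6 pairs of hexokinase and phosphofructokinase genes, with untreated (blue) and Romidepsin-treated (red) libraries of the same replicate number joined by a line. The Pfkl/Pfkm and Pfkl/Pfkp lines run down in all 4 pairs, and the Hk1/Hk3 and Hk2/Hk3 lines of numbers 1 and 2 rise more than those of numbers 3 and 4.

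Among the hexokinases, Hk3 differed most, and by very unequal amounts in the treated libraries. Hk3 (chr13:55005985-55021385, minus strand) was at 294, 322, 418 and 342 CPM in untreated replicates 1 to 4 and at 30.9, 36.3, 272 and 179 CPM in treated ones. Every treated library was below every untreated one. Within pairs the log2 difference was −3.23 and −3.13 for numbers 1 and 2, but −0.62 and −0.93 for numbers 3 and 4. The log2 fold change was −1.41 ± 0.64 and did not pass (edgeR quasi-likelihood adjusted p = 0.11). With the libraries paired by a replicate block it was −1.98 and passed (edgeR adjusted p = 0.0201). Hk3 also passed without treated replicate 3 (−2.08, adjusted p = 0.022), on leaving out the pair of number 3 (−1.96, 0.0481), with limma-voom (−1.98, 0.0495) and with the DESeq2 Wald test (−1.44, 0.0394).

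Most of the 14 myeloid suppressor markers were, like Hk3, lower in treated replicates 1 and 2 than in 3 and 4, but Arg1 and Nos2 were not. Csf3r, at 7.05, 10.9, 142.8 and 61.0 CPM in treated replicates 1 to 4, had this pattern and passed (−2.47, edgeR adjusted p = 0.0439). Il4ra had it and passed as well (−0.82, edgeR adjusted p = 0.039). Csf1r, the receptor for macrophage colony-stimulating factor, was at 1477 to 4701 CPM in untreated libraries and at 186, 373, 1944 and 1362 CPM in treated replicates 1 to 4. Ptprc, which encodes the leukocyte surface protein CD45, was at 557 to 996 CPM untreated and at 150.0, 151, 626 and 364 CPM treated. Both were lowest in treated replicates 1 and 2, as Hk3 was, and neither passed the test (edgeR adjusted p = 0.0895 for Csf1r and 0.0675 for Ptprc). Among treated libraries Arg1 was instead lowest in replicate 4, at 1.42 CPM. Nos2 was highest in treated replicates 1 and 2, at 17.7 and 11.6 CPM. Mitochondrial genes took 0.934 to 1.89% of counts in untreated and 3.05, 2.42, 1.59 and 2.39% in treated replicates 1 to 4. The part of these differences in the Hk3 values was not tested.

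Hk2, an inducible hexokinase that binds mitochondria, was at 129, 102, 100.1 and 137 CPM untreated and at 85.7, 83.3, 93.2 and 105 CPM treated (chr6:82725025-82774454, minus strand). The groups overlapped slightly, between treated replicate 4 and untreated replicates 2 and 3. The log2 fold change was −0.35 ± 0.16 (edgeR adjusted p = 0.116) with TMM scaling and 0.38 (adjusted p = 0.20) with housekeeping scaling, so its sign depended on the scaling. Hk1, the widely expressed hexokinase, was at 163, 145, 186 and 219 CPM untreated and 151, 178, 215 and 225 CPM treated (chr10:62268855-62379908, minus strand). These ranges overlapped almost fully, with a log2 fold change of 0.11 ± 0.20 (edgeR adjusted p = 0.683), and Hk1 passed only with housekeeping scaling (0.82, adjusted p = 0.0215).

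The Hk2 to Hk3 pair showed the widest spread among treated libraries. The log2 ratio of Hk2 to Hk3 counts was −1.18, −1.66, −2.06 and −1.32 in untreated replicates 1 to 4 and 1.47, 1.20, −1.55 and −0.77 in treated ones. Hk3 had more counts than Hk2 in all untreated libraries and in treated replicates 3 and 4, and fewer in treated replicates 1 and 2. The difference of means was 1.65 (exact permutation p = 0.0857, adjusted p = 0.103 over the 6 pairs) and the groups overlapped. Hk1 against Hk3 differed by 2.10 with no overlap (exact permutation p = 0.0286, adjusted p = 0.0571), and Hk1 against Hk2 by 0.45 with overlap (exact permutation p = 0.0571, adjusted p = 0.0857). Per merged exons, Hk3 held 66.2, 72.0, 74.7 and 65.7% of hexokinase RNA in untreated libraries and 20.7, 22.1, 64.4 and 52.5% in treated ones. The summed hexokinase level was 134 ± 15.5 CPM per kb untreated and 73.1 ± 36.5 treated (SD, n = 4), so unlike the phosphofructokinase sum it had a wide spread in treated cells.

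The windows before the Hk2 and Hk3 starts are shown because these genes contrast in base composition. Capitals mark the same motifs as above.
Hk2 promoter, chr6:82774455-82774704, minus strand: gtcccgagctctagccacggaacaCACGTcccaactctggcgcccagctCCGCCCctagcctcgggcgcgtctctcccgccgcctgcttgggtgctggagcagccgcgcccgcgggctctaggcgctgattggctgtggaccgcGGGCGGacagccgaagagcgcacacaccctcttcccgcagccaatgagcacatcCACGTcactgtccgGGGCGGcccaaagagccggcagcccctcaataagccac
Hk3 promoter, chr13:55021386-55021635, minus strand: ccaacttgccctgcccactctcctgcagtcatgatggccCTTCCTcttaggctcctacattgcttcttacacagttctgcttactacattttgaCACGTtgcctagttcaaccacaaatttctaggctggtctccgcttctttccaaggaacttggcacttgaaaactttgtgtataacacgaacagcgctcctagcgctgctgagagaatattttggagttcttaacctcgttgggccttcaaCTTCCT
The Hk2 window had 69.6% GC with 25 CpG dinucleotides, 3 GC boxes and 2 ACGTG cores. The Hk3 window had 47.2% GC with 6 CpG dinucleotides, the median of all windows, and held 2 AGGAAG matches, 1 of them ending at the start, and 1 ACGTG core. Among the windows chosen for the 10 genes, that of Ldha held the most ACGTG matches, 5, of which 4 come from its 2 CACGTG sites. The chosen Ldha window lies inside the annotated span of the gene, so it may not be the promoter in use. The other RefSeq window of Ldha held 0 ACGTG matches.

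Slc2a1 (chr4:119108711-119137983, plus strand) was at 136.5, 76.3, 85.2 and 80.2 CPM in untreated replicates 1 to 4 and at 112, 108, 130 and 163 CPM in treated ones. Untreated replicate 1 was the highest of its group and above 3 of the 4 treated libraries, while the other 3 untreated libraries were below all treated ones. The log2 fold change was 0.44 ± 0.23 and did not pass (edgeR adjusted p = 0.154). Slc2a1 passed without untreated replicate 1 (0.67, adjusted p = 0.032), with library size scaling (0.72, 0.0394) and with housekeeping scaling (1.21, 0.00257).

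The 3 abundant enzymes of the lower part of the pathway had negative fold changes that did not pass and whose sign depended on the scaling. Gapdh, encoding glyceraldehyde-3-phosphate dehydrogenase (chr6:125161715-125166467, minus strand), was at 933, 788, 745 and 591 CPM untreated and 571, 475, 616 and 625 CPM treated. Untreated replicate 4 lay within the treated range, and the log2 fold change was −0.42 ± 0.21 (edgeR adjusted p = 0.147) with TMM but 0.35 (0.15) with housekeeping scaling. Gapdh has many near-identical processed copies in the mouse genome, so its counts are uncertain. Pkm, encoding the pyruvate kinase of most tissues (chr9:59656368-59679375, plus strand), was at 2002, 1411.5, 1669 and 2228 CPM untreated and 1265.5, 1077, 1439 and 1746 CPM treated. The ranges overlapped, with a log2 fold change of −0.40 ± 0.25 (edgeR adjusted p = 0.228) and 0.31 (0.341) with housekeeping scaling. Counts per gene do not separate the PKM1 and PKM2 splice forms of Pkm. Ldha, encoding the lactate dehydrogenase subunit that favours lactate formation (chr7:46841475-46855627, plus strand), was at 1093, 731, 863.5 and 776 CPM untreated and 678, 473, 599 and 652 CPM treated. All treated libraries were below all untreated ones, yet the log2 fold change of −0.53 ± 0.22 did not pass (edgeR adjusted p = 0.0869), and it was 0.24 (0.381) with housekeeping scaling. Ldha passed with the DESeq2 Wald test (−0.56, adjusted p = 0.0181).

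TMM factors were 0.8375 to 0.9639 in untreated and 0.9826 to 1.193 in treated libraries, so the choice of scaling moved all fold changes together. Compared with TMM, library size alone raised the median fold change of all genes by 0.30 on the log2 scale and housekeeping scaling raised it by 0.76. With these scalings 30.2% of all genes were higher and 10.6% lower, and 48.2% higher and 4.76% lower, respectively. The order of the 10 fold changes was the same with TMM and library size, and with housekeeping scaling it differed only in that Gapdh and Pkm changed places. Pfkm was the highest and Hk3 and Pfkl were the lowest in all 3 scalings.

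**Figure D4:**
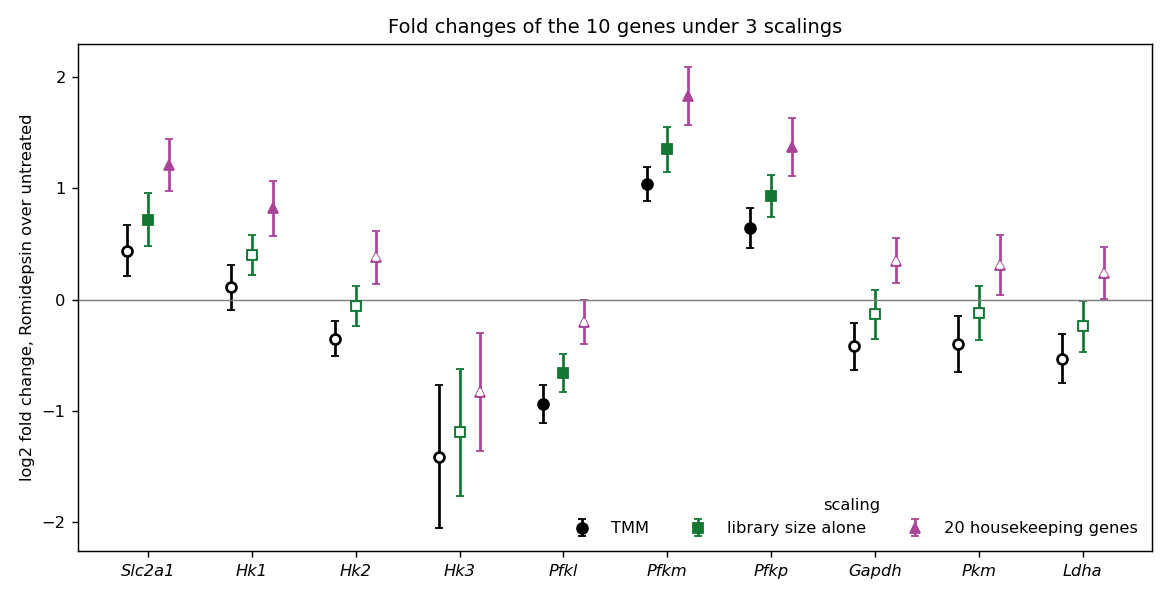
Log2 fold change of each gene, Romidepsin-treated over untreated, with its standard error, under TMM, library size and housekeeping scaling. Points with a white centre have an adjusted p of 0.05 or more. All points of Pfkm and Pfkp are above 0 and called, those of Hk3 and Pfkl are below 0, and those of Hk2, Gapdh, Pkm and Ldha change sign with housekeeping scaling.

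The genes around these enzymes were described from 5 lists. Of 87 genes listed, 80 were in the table and 67 were tested, of which 18 were higher, 5 were lower and 44 did not pass. These are 26.9% higher and 7.46% lower, against 20.3% and 16.2% of all tested genes, with a median log2 fold change of 0.04. Leaving out treated replicate 3 gave 12 lower genes (17.9%, against 23.4% of all tested genes). Both leaving out the libraries of number 3 and the replicate block gave 10 (14.9%, against 18.9% and 20.8%). With housekeeping scaling (edgeR) 36 were higher and none was lower, with 1 lower at an unadjusted p under 0.05.

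Among 13 other enzymes of glycolysis tested, 2 rose and none fell in edgeR (1 was lower at an unadjusted p under 0.05), and the median of the list was −0.17. Eno2, the neuronal enolase gene, was at 2.40, 6.19, 3.70 and 4.16 CPM untreated and 37.1, 44.4, 32.6 and 39.3 CPM treated. It rose by 3.22 ± 0.28 on the log2 scale (edgeR adjusted p = 0.000526). Bpgm, which makes 2,3-bisphosphoglycerate, went from 12.7 ± 1.87 to 28.2 ± 3.87 CPM (1.15 ± 0.18, edgeR adjusted p = 0.00273). The most abundant gene of the list, the aldolase gene Aldoa, was at 2129 ± 413 CPM untreated and 1519 ± 359 treated and did not pass (−0.49 ± 0.27, edgeR adjusted p = 0.176), with a positive value of 0.27 under housekeeping scaling. In DESeq2 and without treated replicate 3, 2 enzymes of this list were lower, and in limma-voom none. With housekeeping scaling 6 were higher.

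Of 11 genes of sugar and lactate transport tested, 3 rose, 1 fell and 7 did not pass, with a median of −0.70. Slc2a4, encoding the insulin-responsive transporter GLUT4 of muscle and fat, had 1 count over all untreated libraries and 345 over the treated ones. The treated libraries held 8.20, 8.96, 0.993 and 2.98 CPM, so replicates 1 and 2 were again the most changed (edgeR adjusted p = 0.00191). The ratio of pooled rates was 311, with a 95% exact interval of 55.4 to 12312 that covers counting error only. Slc2a8, encoding the intracellular transporter GLUT8, rose from 19.3 ± 2.96 to 52.4 ± 12.6 CPM (1.44 ± 0.21, edgeR adjusted p = 0.00232). Slc16a1, encoding the monocarboxylate carrier MCT1, rose from 13.2 ± 5.73 to 38.1 ± 11.2 CPM (1.53 ± 0.32, edgeR adjusted p = 0.00809). The urate and sugar transporter gene Slc2a9 fell from 22.0 ± 3.34 to 7.65 ± 6.45 CPM (−1.53 ± 0.50, edgeR adjusted p = 0.0402), a call lost with no count filter, with housekeeping scaling, and on leaving out any library except treated replicate 3.

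The lactate exporter gene Slc16a3 (MCT4) did not pass, at 317 ± 54.0 and 195 ± 62.7 CPM with no overlap (−0.70 ± 0.26, edgeR adjusted p = 0.0587), but passed without treated replicate 3 (−0.91, 0.0166), on leaving out the pair of number 3 (−0.87, 0.0421), with the replicate block (−0.74, 0.0396), with DESeq2 (−0.73, 0.0213) and with limma-voom (−0.75, 0.0438). Slc2a3, encoding the high-affinity transporter GLUT3, was at 37.2 ± 17.4 and 22.5 ± 4.98 CPM (−0.73, edgeR adjusted p = 0.13), and passed without untreated replicate 3 (−0.98, 0.0354) and on leaving out the pair of number 3 (−0.84, 0.0324). The chaperone of both lactate carriers, Bsg, was at 311 ± 41.0 and 328 ± 46.4 CPM (0.08 ± 0.19, edgeR adjusted p = 0.765). Under housekeeping scaling the values of Slc16a3 and Slc2a3 were both 0.02, and Bsg passed at 0.88. Of the 11 tested genes of the transport list, 5 were lower with the replicate block (45.5%, against 20.8% of all tested genes). There were 6 when both libraries of number 3 were left out (54.5%, against 18.9%) and 5 when treated replicate 3 was (45.5%, against 23.4%). With housekeeping scaling (edgeR) 4 were higher and 0 lower, also 0 lower at an unadjusted p under 0.05.

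Of 22 genes that control the flux or the transcription of the pathway, 6 rose, 3 fell and 13 did not pass, with a median of 0.32. With library size 11 were higher and 3 lower, with housekeeping scaling (edgeR) 13 were higher and 0 lower (1 lower at an unadjusted p under 0.05), and with the replicate block 7 were higher and 3 lower. Mlxipl, encoding the carbohydrate response factor ChREBP, rose from 0.405 ± 0.214 to 4.23 ± 1.85 CPM (3.39 ± 0.51, edgeR adjusted p = 0.0024), and its partner Mlx from 49.4 ± 4.89 to 75.4 ± 8.50 CPM (0.61 ± 0.15, 0.0128). Txnip, a ChREBP target whose product restrains glucose uptake, rose from 1395 ± 164 to 2945 ± 727 CPM (1.08 ± 0.26, edgeR adjusted p = 0.0129). A link between the RNA of Mlxipl or Mlx and that of Txnip was not tested. Tigar, a fructose bisphosphatase that lowers the activator of phosphofructokinase, rose from 22.8 ± 5.10 to 58.3 ± 10.6 CPM (1.36 ± 0.21, edgeR adjusted p = 0.00251). Pfkfb4, which encodes another enzyme that sets the level of that activator, fell from 104 ± 5.81 to 61.1 ± 11.7 CPM (−0.77 ± 0.16, edgeR adjusted p = 0.00864). Of the same gene family, Pfkfb2 instead rose from 6.38 ± 3.37 to 16.9 ± 4.38 CPM (1.40 ± 0.37, edgeR adjusted p = 0.018). Pfkfb3, at 133 ± 44.3 CPM untreated, did not pass (−0.56 ± 0.26, edgeR adjusted p = 0.119). Akt2, an insulin-signalling kinase that promotes glucose uptake, fell from 76.5 ± 9.86 to 35.0 ± 10.7 CPM (−1.13 ± 0.22, edgeR adjusted p = 0.00556). The calls of Pfkfb4 and Akt2 were lost with housekeeping scaling (−0.04, 0.875, and −0.44, 0.147). The RNA of Hif1a, which encodes the oxygen-regulated subunit of hypoxia-inducible factor, was at 169 to 434 CPM untreated and 232 to 309 CPM treated (−0.02 ± 0.28, edgeR adjusted p = 0.966), and its sign changed with library size (0.29) and housekeeping scaling (0.66).

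Of 13 genes for the entry of pyruvate into mitochondria or its control, 7 rose and none fell in edgeR, DESeq2 or limma-voom (1 was lower at an unadjusted p under 0.05 in each), and the median of the list was 0.58. In edgeR the 7 are 53.8% of the list, against 20.3% of all tested genes. The list also holds kinase genes whose products restrain pyruvate dehydrogenase, and 1 of them, Pdk2, was among the 7 (0.58 ± 0.20, edgeR adjusted p = 0.0443). The pyruvate dehydrogenase complex links glycolysis to the citric acid cycle. Dlat, its acetyltransferase subunit, was at 51.1, 44.6, 51.5 and 53.0 CPM untreated and 107.8, 99.5, 79.6 and 103 CPM treated (0.96 ± 0.15, edgeR adjusted p = 0.0025). Pdhx, its binding subunit, rose from 18.2 ± 1.53 to 37.4 ± 9.37 CPM (1.04 ± 0.21, edgeR adjusted p = 0.00683), and Pdhb, its E1 beta subunit, from 60.4 ± 4.57 to 141 ± 47.0 CPM (1.22 ± 0.25, 0.00708). Pdha1, the E1 alpha subunit that pairs with Pdhb, did not pass, at 105 ± 12.5 and 96.8 ± 3.92 CPM (−0.12 ± 0.14, edgeR adjusted p = 0.503), and its sign changed with library size (0.18) and housekeeping scaling (0.64). Pcx, encoding pyruvate carboxylase, rose from 1.46 ± 0.59 to 13.7 ± 11.2 CPM (3.22 ± 0.73, edgeR adjusted p = 0.0105). Higher genes of this list numbered 6 with the replicate block, 9 with library size and 11 with housekeeping scaling. Without untreated replicate 2 they numbered 4, a setting in which 15.1% of all genes were higher.

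Of 8 genes of the pentose phosphate pathway, which branches off at glucose 6-phosphate, 1 fell and none rose, and the median was −0.42. With TMM in edgeR, and in DESeq2 and limma-voom, none was higher at an unadjusted p under 0.05. The scaling changed this split: with edgeR, library size gave 1 higher gene, and housekeeping scaling gave 2 higher and 0 lower (also 0 lower at an unadjusted p under 0.05). The replicate block and DESeq2 each gave 2 lower. H6pd, the dehydrogenase of the endoplasmic reticulum, went from 85.2 ± 22.1 to 52.5 ± 7.59 CPM (−0.70 ± 0.20, edgeR adjusted p = 0.0251), a call lost with library size (0.116) and housekeeping scaling (0.992) and without treated replicate 1 (0.0709), 2 (0.058) or 4 (0.0584). Pgd, the most abundant of the list, was at 757 ± 133 and 562 ± 141 CPM and did not pass (−0.43 ± 0.25, edgeR adjusted p = 0.189), with 0.29 under housekeeping scaling.

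**Figure D5:**
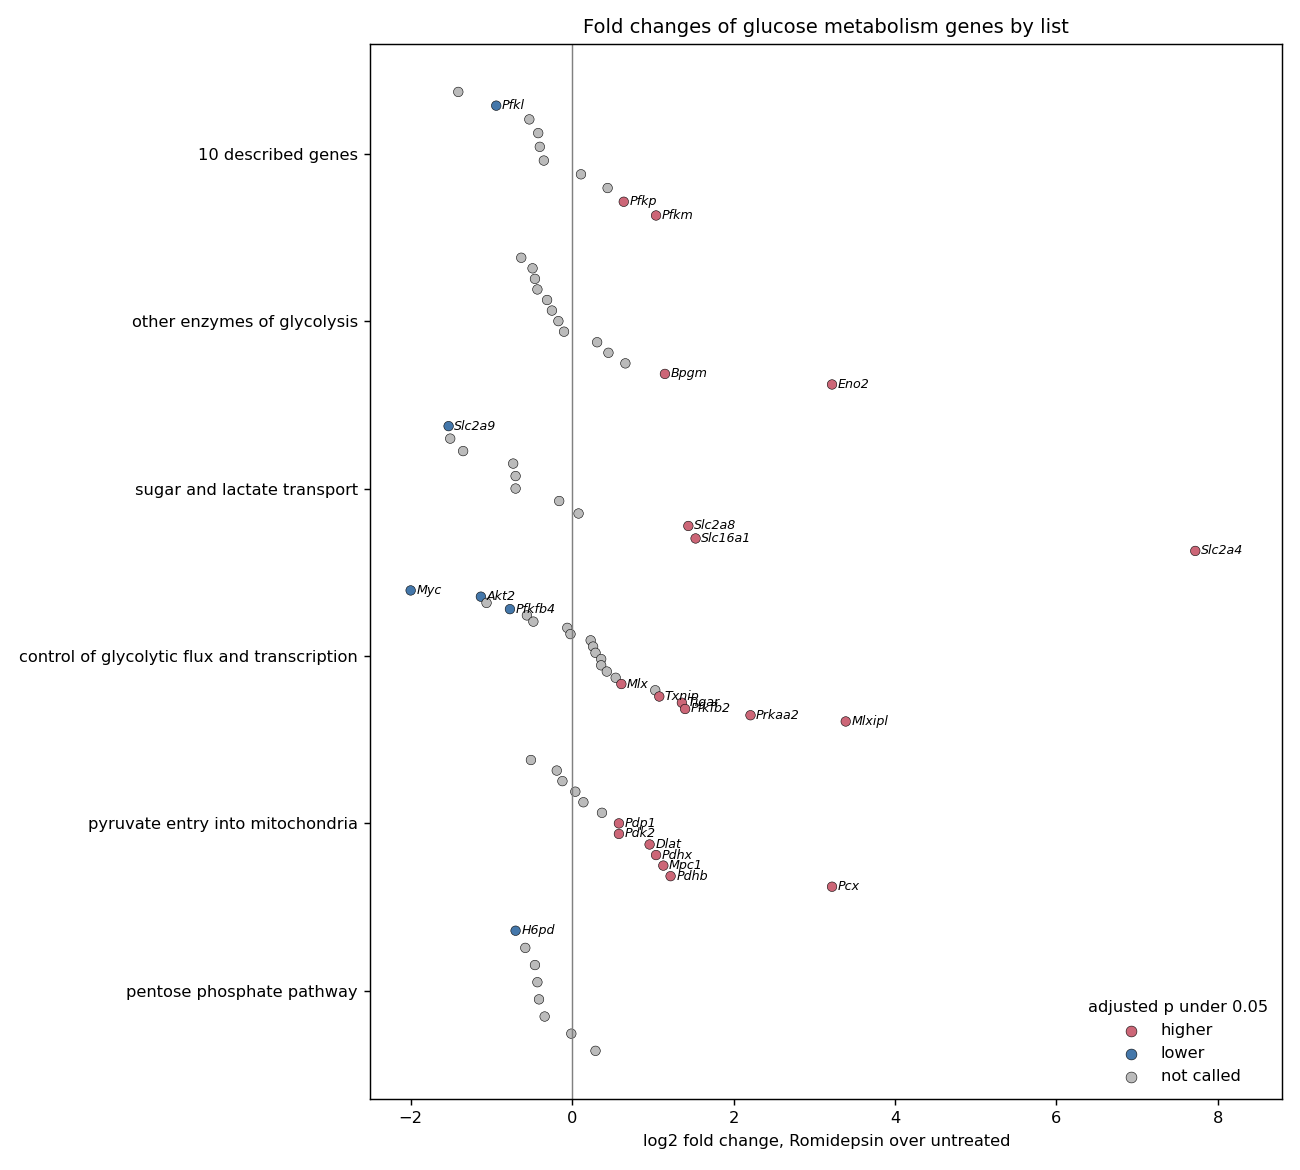
Log2 fold change of each tested gene, Romidepsin-treated over untreated, in the 10 described genes and 5 lists. Red points were higher and blue points lower at an adjusted p under 0.05 (edgeR), and grey points did not pass. Most red points with large fold changes belong to genes of low level in untreated cells, such as Slc2a4, Mlxipl, Eno2 and Pcx, and housekeeping scaling leaves no gene of the 5 lists lower.

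For 5 of the 10 genes, the most similar profiles over the 8 libraries were sought by Pearson's r of log2 CPM, among 8809 genes whose mean reached 10 CPM. The values describe these libraries and, being the highest of many, are given without a test. Closest to Hk3 were Tram1 (r = 0.999), Vav1 (0.996) and C5ar1 (0.995), which share its low level in treated replicates 1 and 2. Closest to Pfkl were Eif5 (0.997), Snx17 (0.99) and Wdr1 (0.987). All 3 fell, which comes with the selection because r includes the difference between the groups. After removing the group means their r with Pfkl was 0.977, 0.916 and 0.867. Hnrnpf (0.98), Brpf1 and Slc38a2 were closest to Hk2, Rab7 (0.97), Smyd2 and Il1rn to Ldha, and Tmem50b (0.961), Dhrs11 and Mpp6 to Slc2a1.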

How the data were processed

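The authors deposited 1 table of unnormalised counts of reads for each Ensembl gene and library. The submitters' processing notes name STAR 2.5.2a, FastQC, DESeq2 and the GRCm38 (mm10) build. How reads were counted, and whether by strand, is not given in the sources used here. Of 26930 identifiers, 26881 matched a GENCODE vM21 symbol, and no 2 libraries held identical counts.

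Groups came from the sample titles. The test used edgeR 4.0.16 (R 4.3.3) on the deposited counts: filterByExpr (12852 genes kept), TMM scaling and the two-sided robust quasi-likelihood test, with Benjamini-Hochberg adjustment over all genes tested and a threshold of 0.05. Log2 fold changes are treated over untreated with their standard error. Isoform ratios were log2 ratios of counts plus 0.5 within a library, compared by exact permutation. Levels between genes were compared per kilobase of merged exons. The script was tested on simulated data. Total counts of 12996892 to 23176949 per library make fold changes of genes near 1 CPM imprecise.

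The 10 genes and the lists were chosen with earlier results of these data known. From each list the text names up to 3 called genes with the smallest p in the direction with more calls, up to 2 in the other direction, and the most expressed gene not called. Slc2a3, Slc16a3, Txnip and Pcx were named outside this rule, after their values were seen. So were Pdk2, Pfkfb2 and Pfkfb3, which are given from the reported fit only.

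The groups share replicate numbers 1 to 4. Deviations from the group means correlated at 0.525, 0.27, 0.457 and 0.171 between libraries of the same number, and at most at 0.0467 between different numbers. As every value for the same number lies above 0.1, the numbers were used as pairs in the replicate block, the sign-flip test and the differences within pairs. The labels do not give the meaning of a number, so the pairing rests on this check, and the reported test leaves it out. Values from a replicate block are printed for the named genes whose call it changed and for list counts that it changed. This leaves out the cell type markers and the genes given from the reported fit only.

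Alternatives were other scalings (library size, the sum of 20 housekeeping genes, DESeq2 size factors), other filters (none, or a mean of 10 CPM or more), other tests (limma-voom from limma 3.58.1, the Wald test of DESeq2 1.42.0), a ratio pseudocount of 5, the replicate block, leaving out each library, and leaving out both libraries of number 3. The principal-transcript length, and the settings for named list genes, were added after seeing the data.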

Additional observations from a re-analysis of the deposited data

Results flagged for a closer look

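Slc2a1 was at 136.5 CPM in untreated replicate 1, far from the other 3 untreated libraries, with a gap of 0.852 of the range of the group. It was the only such case among 32 groups of 4 libraries examined, and chance alone marks about 1 group in 20. In untreated replicate 1 Cdh1 was also at 174.3 CPM, against 4.74 to 5.62 CPM in the other untreated libraries. Itgax was at 155.2 CPM there and at 9.37 to 34.6 CPM in the others, while many other markers did not stand apart. Whether this bears on the Slc2a1 value was not tested.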

How the results depend on the processing

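Higher genes among the 10 numbered 2 as reported, 4 with housekeeping scaling, 1 with no count filter, 1 without both libraries of number 3, and 1 to 3 when each library was left out in turn. Lower genes numbered 1 as reported, 0 with housekeeping scaling (edgeR, also 0 at an unadjusted p under 0.05), 3 with DESeq2, 2 with limma-voom, 2 with the replicate block, 2 without both libraries of number 3, and 1 to 2 when each library was left out. Of all tested genes, limma-voom called 18.7% lower, and leaving out each library gave 13.4 to 24.5% higher and 9.2 to 23.4% lower. Over the 5 lists, 36 were higher and 0 lower with housekeeping scaling (edgeR), against 12 lower with DESeq2, 10 with the replicate block, 10 without both libraries of number 3 and 3 to 12 when each library was left out. Among the 10 genes, the replicate block changed no call other than that of Hk3. Pairing cannot change the direction of an isoform ratio, as the mean paired difference equals the difference of the group means.

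Housekeeping scaling reversed Hk2 (0.38), Gapdh (0.35), Pkm (0.31), Ldha (0.24), Aldoa (0.27), Hif1a (0.66), Pdha1 (0.64), Pgd (0.29), Slc2a3 (0.02) and Slc16a3 (0.02), none of which was called as reported. Library size reversed Hif1a (0.29) and Pdha1 (0.18), and limma-voom (0.09) and the replicate block (0.07) reversed Hif1a. Leaving out 1 library gave Hif1a −0.19 to 0.30 and Bsg −0.03 to 0.13. The cause was not tested. All 6 isoform ratios kept their direction under each alternative run. Scaling, filter and pairing cannot change that direction, so only the pseudocount and leaving out libraries could have. Low depth limits Slc2a4 and Mlxipl, and the share of reads from overlapping genes cannot be told apart.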

Other observations

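Eno1b, a near-identical copy of the enolase gene Eno1, was at 0, 0, 32.8 and 36.2 CPM in untreated replicates 1 to 4 and at 0.0574, 0, 28.4 and 27.4 CPM in treated ones. It thus separated numbers 1 and 2 from numbers 3 and 4 in both groups. Over all 12852 tested genes, 487 had no overlap between the libraries of numbers 1 and 2 and those of numbers 3 and 4, against 81 and 93 for the other groupings of the numbers into pairs.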
